A study of Mus musculus with 120 samples.

Results

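Interferon response genes are the genes that cells switch on when interferons bind their receptors. Type I interferons act through the receptor chains Ifnar1 and Ifnar2 and the kinases Jak1 and Tyk2. These lead to a factor containing Stat2 and Irf9, which binds the interferon-stimulated response element in DNA. Interferon gamma acts through another DNA element, the gamma-activated site. In the liver, hepatocytes and the resident macrophages, called Kupffer cells, both express such genes at a basal level without infection.

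The set held 42 genes chosen by symbol, and every probe set annotated to one of them alone was taken. Of the 42 genes, 40 had such a probe set, 63 probe sets in all of the 34945 with a single symbol in the table. No probe set carried the symbol Ifi44 or Isg15 alone. A probe set was tested when its value lay above 7.42, the median of every deposited value, in 2 or more of the 60 males. That left 42 probe sets of 32 genes among 19429 probe sets of 11949 genes. The other 21 member probe sets lay below this level in all 60 males. All probe sets of 8 genes did so, namely Gbp2, Gbp3, Ifit1, Ifit2, Mx1, Mx2, Oasl2 and Usp18, and their values are given only from a fit without the filter.

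The arrays measured liver RNA of males aged 10 weeks that had fasted for 4 h. There were 30 strains with 2 males each and 2 arrays per male, 120 arrays in all. The control strain, B6, is the common inbred strain C57BL/6J, and MSM is an inbred line founded from wild mice of Japan. The 28 others are consomic strains, in which 1 chromosome of B6 was replaced by that of MSM, whole or only toward the centromere (C) or the telomere (T). They are named Chr1, Chr2C, Chr2T, Chr3, Chr4, Chr5, Chr6C, Chr6T, Chr7, Chr7C, Chr7T, Chr8, Chr9, Chr11, Chr12C, Chr12T, Chr13C, Chr13T, Chr14 to Chr19, ChrXC, ChrXT, ChrY and mt, the last with the mitochondrial genome of MSM. No strain with chromosome 10 was among them, and where the C and T parts begin and end is not given in the labels. No animal received an infection or an interferon treatment according to the labels, so the values describe basal expression.

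The deposited values were taken as log2 signals, and their spread was compressed to a different degree in each probe set. A difference between strains is therefore given as a difference of deposited log2 values, not as a fold change, and its size cannot be set against that of another probe set. To show the males side by side, each probe set was also written as a scaled value, the distance of a male from the mean of all 60 males in units of the SD between males. Depth of sequencing does not apply to arrays, and the 2 males per strain limit the precision. The array medians lay between 7.416 and 7.417. Chr9 male 1 stood apart over all probe sets tested, as the highest of the 60 males in 11.9% and the lowest in 13.8% of them, more than any other male. Markers of hepatocytes were at the top of the range, with Alb at 14.8 on the log2 scale, and 17 of 17 hepatocyte probe sets passed the filter.

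The response element that defines the type I pathway could be looked up in the promoters of 31 of the 42 genes. The RefSeq promoter table (build GRCm38.p6), which runs from 250 bases before to 50 bases after each start, held 39 promoters of these genes. The core of the interferon-stimulated response element was searched as the letters GAAANNGAAA on one strand or TTTCNNTTTC on the other. It was present in 18 of the 39 promoters (46.2%, 17 genes), against 3.44% of all 32851 promoters in the table. The core of the gamma-activated site, TTCNNNGAA, reads the same on both strands and was present in 10 of the 39 (25.6%), against 8.30% of all. The cores can share the letters GAA where their sites meet. The promoters below are those of genes on which the results turn: the RNA sensor Ddx58, the effectors Ifit3 and Oas1a, and the GTPases Irgm1 and Irgm2. Irf5, which had the smallest p between strains among the probe sets tested, is shown as a promoter without the first core. Capitals mark the response element core.
Ddx58 (chr4:40239776-40240075, minus strand): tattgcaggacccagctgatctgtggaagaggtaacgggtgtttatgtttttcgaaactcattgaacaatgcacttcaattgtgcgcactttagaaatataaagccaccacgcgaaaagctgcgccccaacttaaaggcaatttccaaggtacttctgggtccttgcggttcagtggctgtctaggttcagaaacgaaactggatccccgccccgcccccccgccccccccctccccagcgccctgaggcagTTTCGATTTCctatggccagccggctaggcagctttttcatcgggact
Ifit3 (chr19:34583279-34583578, plus strand): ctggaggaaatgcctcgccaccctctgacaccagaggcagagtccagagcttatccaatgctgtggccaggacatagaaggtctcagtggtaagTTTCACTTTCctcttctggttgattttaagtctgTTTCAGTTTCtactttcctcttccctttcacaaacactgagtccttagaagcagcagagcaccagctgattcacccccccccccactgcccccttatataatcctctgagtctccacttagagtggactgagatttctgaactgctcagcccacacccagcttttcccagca
Oas1a (chr5:120907476-120907775, minus strand): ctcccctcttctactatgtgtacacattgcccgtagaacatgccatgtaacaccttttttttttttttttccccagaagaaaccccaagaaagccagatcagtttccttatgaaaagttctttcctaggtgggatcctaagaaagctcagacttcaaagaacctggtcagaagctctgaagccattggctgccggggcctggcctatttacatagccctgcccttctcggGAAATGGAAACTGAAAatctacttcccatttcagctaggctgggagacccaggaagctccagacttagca
Irgm1 (chr11:48871371-48871670, minus strand): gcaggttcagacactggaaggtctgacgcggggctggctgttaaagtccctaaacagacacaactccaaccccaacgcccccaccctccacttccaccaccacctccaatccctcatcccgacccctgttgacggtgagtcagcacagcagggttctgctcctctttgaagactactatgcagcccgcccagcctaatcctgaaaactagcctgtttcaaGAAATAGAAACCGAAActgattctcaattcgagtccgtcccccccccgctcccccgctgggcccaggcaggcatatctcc
Irgm2 (chr11:58214727-58215026, plus strand): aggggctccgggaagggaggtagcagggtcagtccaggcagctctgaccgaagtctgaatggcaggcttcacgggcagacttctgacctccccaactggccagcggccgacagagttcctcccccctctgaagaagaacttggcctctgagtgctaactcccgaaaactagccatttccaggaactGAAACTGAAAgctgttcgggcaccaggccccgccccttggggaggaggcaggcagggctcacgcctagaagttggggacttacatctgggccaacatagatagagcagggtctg
Irf5 (chr6:29526375-29526674, plus strand): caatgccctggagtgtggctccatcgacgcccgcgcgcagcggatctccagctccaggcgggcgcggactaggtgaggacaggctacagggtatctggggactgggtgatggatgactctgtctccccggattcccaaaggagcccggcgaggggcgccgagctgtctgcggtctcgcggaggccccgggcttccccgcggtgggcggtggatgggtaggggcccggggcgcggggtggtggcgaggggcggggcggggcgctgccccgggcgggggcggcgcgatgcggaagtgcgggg
Ifit3, Oas1a and Irgm1 each held 2 copies of the core, and Ddx58 and Irgm2 held 1. A match is a description of the letters in B6 reference sequence and was not tested for binding.

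**Figure D1:**
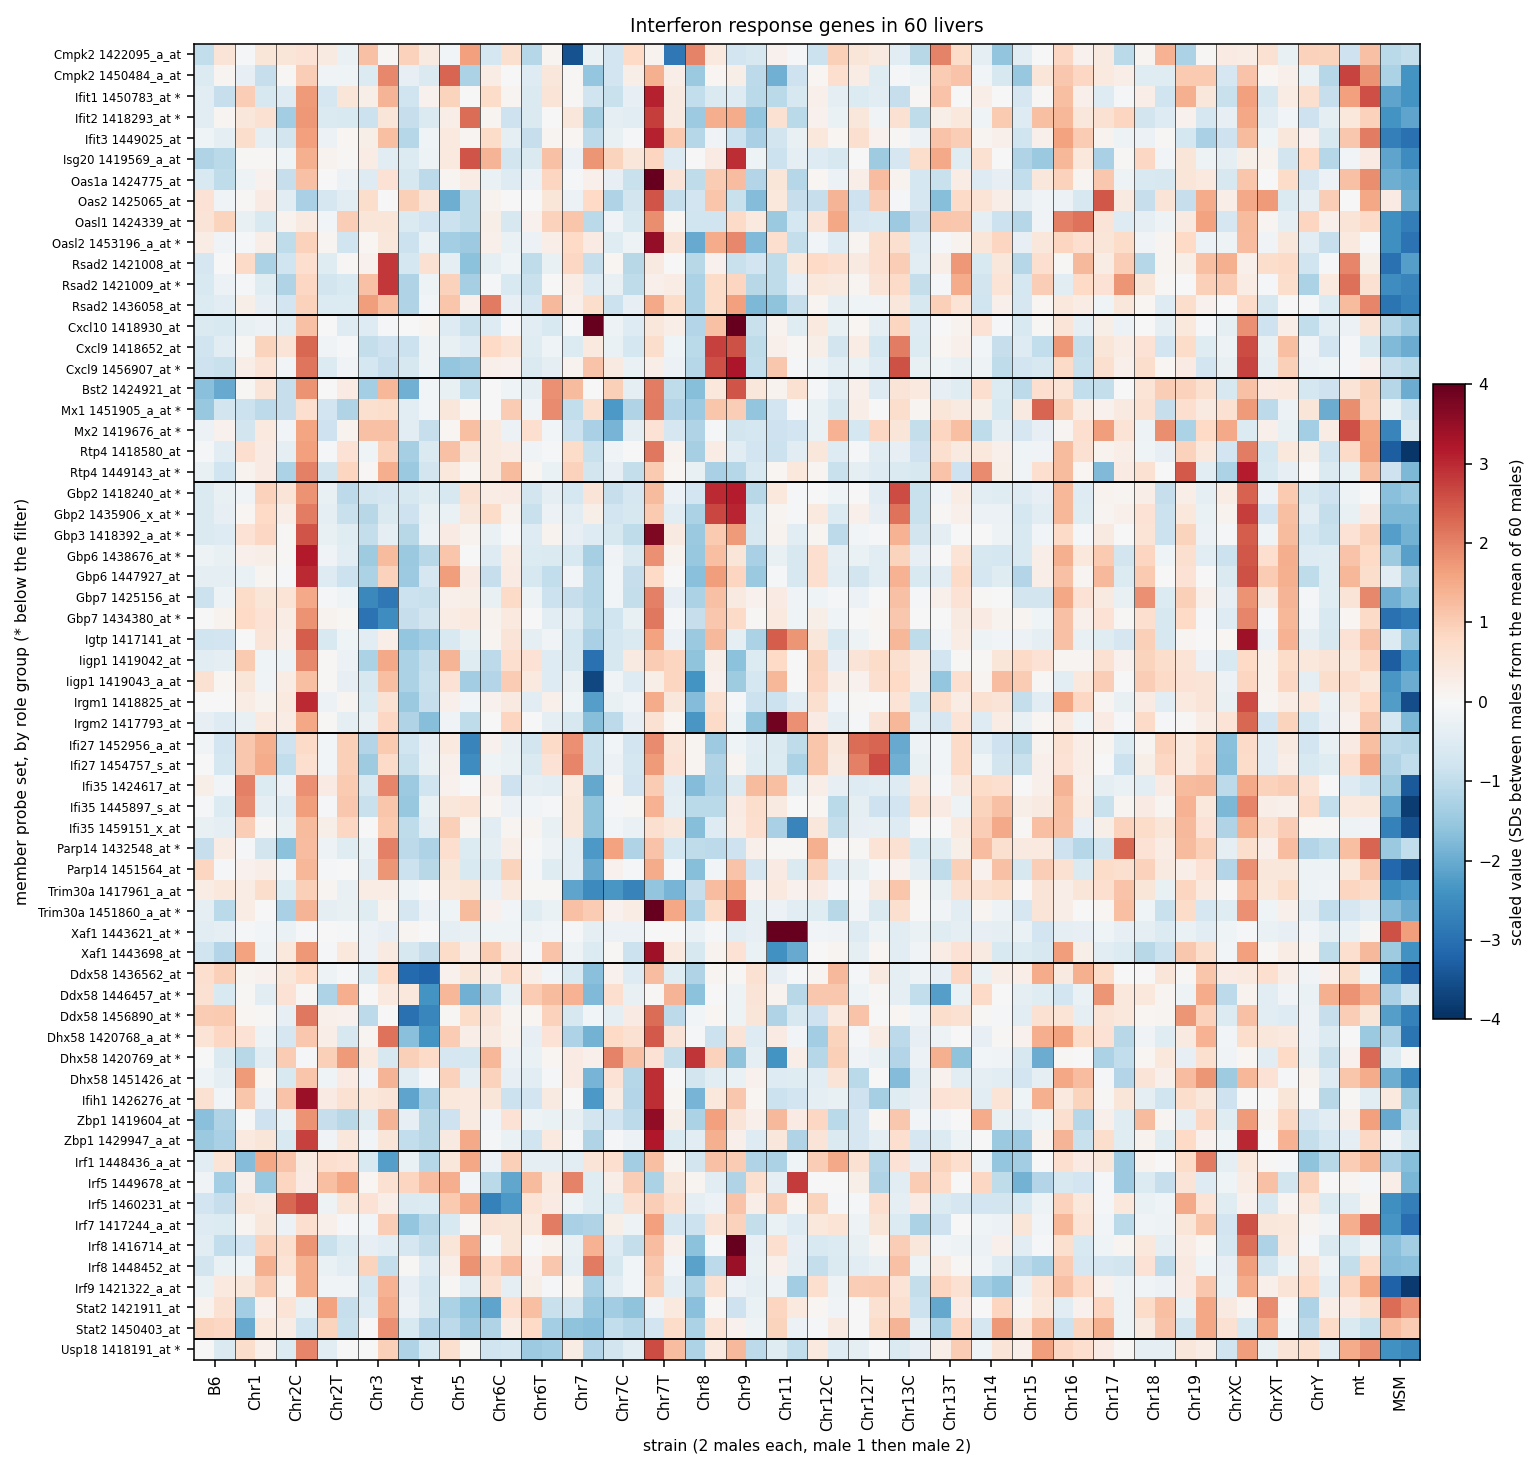
Scaled value of each of the 63 member probe sets (rows, grouped by role, asterisk for those below the filter) in each of the 60 males (columns, 2 per strain), in SDs between males from the mean of the probe set, with the colours saturating at the ends of the bar. The MSM columns at the right are blue in most rows, while single males such as Chr7T male 1, Chr2C male 2 and ChrXC male 2 are red in most rows.

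The first question was whether these genes differ between strains at all. Of the 42 probe sets tested, 12 differed between the 30 strains (limma's moderated F test, Benjamini-Hochberg adjusted over all probe sets), against 16.2% of all probe sets. They belonged to 12 genes: Irf5, Trim30a, Ddx58, Oasl1, Ifit3, Irf9, Ifi35, Xaf1, Rtp4, Gbp7, Irf7 and Irgm1. Irf5, a transcription factor that acts downstream of nucleic acid sensors, had the smallest adjusted p, 9.22e-08. Trim30a, a member of the tripartite motif family, followed at 1.97e-05, and Ddx58, the cytosolic RNA sensor known as RIG-I, at 1.30e-04. The adjusted p was 6.18e-04 for Oasl1, 0.00467 for Ifit3 and 0.00571 for Irf9. Without the filter, 15 of 63 member probe sets were called, against 10.7% of all. The count rested largely on MSM: 4 of 42 were called without the MSM strain and 6 without MSM male 2.

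In the median, the members varied more between 2 males of a strain than between strains. The median share of variance between strains was 20.3% over the 42 probe sets, and that between males of a strain was 47.0%. Repeat arrays of a male accounted for a median of 21.7%. Over all 19429 probe sets the medians were 11.3%, 23.4% and 59.6%. Members thus had more of their variance between animals and less between arrays than the middle probe set. The strain share reached 75.7% in Irf5 1460231_at, 66.4% in Trim30a 1417961_a_at and 63.1% in Ddx58 1436562_at. It was 0 for both chemokines tested, Cxcl9 1418652_at and Cxcl10 1418930_at, whose share between males was 95.1% and 92.8%.

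**Figure D2:**
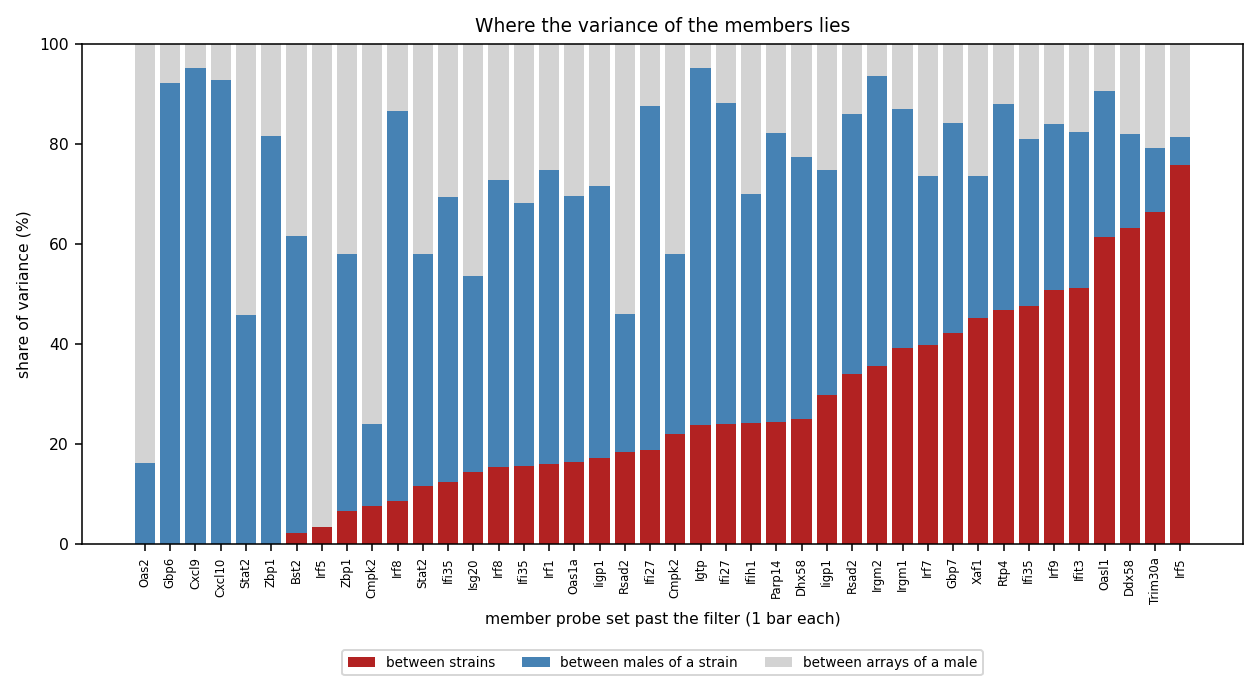
Share of variance (percent, vertical axis) between strains, between the 2 males of a strain and between the 2 arrays of a male for each of the 42 member probe sets past the filter (bars, ordered by the strain share). Irf5 1460231_at is at the right with 75.7% between strains, and 6 bars at the left have no share between strains.

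The parental comparison asked which members differ between MSM and B6. As deposited, 16 of the 42 probe sets were lower in MSM and 0 were higher. Over all probe sets, 9.95% were lower and 13.4% were higher. The 16 probe sets belonged to 13 genes: Ddx58, Oasl1, Irf9, Trim30a, Rtp4, Parp14, Irf5, Ifi35 with 3 probe sets, Ifit3, Irgm1, Irf7, Iigp1 with 2 probe sets, and Rsad2. In all 16, both MSM males were below both B6 males. The difference was negative in 38 of 42 members and in 40.1% of all probe sets. The median difference was -1.53 residual SDs over the members and 0.525 over all probe sets. Without the filter, 20 of 63 member probe sets were lower, against 6.7% of all, and 1 was higher, against 11.2% of all.

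The direction of these differences depends on the scaling. After quantile normalization of the deposited arrays, 16 of the 42 members were higher in MSM than B6 and 6 were lower. In that setting 79.5% of all probe sets were higher and 3.02% lower, and the median difference over all probe sets moved from 0.525 to 5.42 residual SDs. The position of the members relative to the middle probe set was less affected. As deposited, 40 of 42 members lay below the median difference of all probe sets, and after quantile normalization 35 of 42 did. The differences below are on the deposited scale. In MSM, and in the consomic strains for genes on the replaced chromosome, a sequence difference of MSM under a probe and a difference in transcript level cannot be told apart. The count of 16 also fell to 8 without MSM male 2, to 10 without either B6 male, to 10 on the first array of each male, and to 10 with B6 and MSM fitted alone.

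Among the sensors, Ddx58 1436562_at was the clearest. Its scaled values were -2.52 and -3.26 in the MSM males and 0.669 and 0.966 in the B6 males. The MSM males were thus below all 56 males outside MSM and Chr4, which ran from -1.66 to 1.49 with a median of 0.184. MSM was lower than B6 by a log2 difference of -0.00389 ± 0.000579 (SE, 2 males each, adjusted p = 6.59e-06), and it stayed lower in every setting tried, quantile normalization included. A further Ddx58 probe set below the filter, 1456890_at, was lower in MSM too (adjusted p = 6.07e-04 without the filter). Ifih1, the related sensor known as MDA5, and Zbp1, a sensor of Z-form nucleic acid, did not pass the test. Their scaled MSM values were 0.401 and -1.42 for Ifih1, overlapping the B6 males at 0.611 and -0.109. Dhx58 1451426_at, a regulator of both RNA sensors known as LGP2, was at -1.95 and -2.61 in MSM and at -0.169 and -0.378 in B6, with an adjusted p of 0.0827. A Dhx58 probe set below the filter, 1420768_a_at, was lower in MSM in the fit without it (adjusted p = 0.0104), and the third, 1420769_at, was not called.

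Of the transcription factors, Irf9, Irf7 and Irf5 1460231_at were lower in MSM. Irf9, the DNA-binding subunit of the type I interferon factor, had scaled values of -3.22 and -3.84 in MSM and -0.261 and 0.376 in B6. Both MSM males were below all 58 others, the lowest of which was at -1.59. The difference was -0.00125 ± 0.000231 (SE, adjusted p = 1.50e-04), and after quantile normalization the adjusted p was 0.689. Irf7, the factor that amplifies type I interferon production, was at -2.37 and -3.06 in MSM and at -0.509 and -0.538 in B6 (adjusted p = 0.0280). That call was lost when any of the 4 males was left out, and the difference turned positive after quantile normalization. Irf5 1460231_at was at -2.44 and -2.73 in MSM and at -0.763 and -0.922 in B6 (adjusted p = 0.00180), and it too turned positive after quantile normalization. The other Irf5 probe set, 1449678_at, also past the filter, was not called (adjusted p = 0.986). It was at 0.259 and -1.83 in MSM and at -0.154 and -1.35 in B6. Stat2, the partner of Irf9, was not lower. Its probe set 1421911_at was at 2.23 and 1.83 in MSM and at 0.137 and 0.606 in B6 (adjusted p = 0.194). The other Stat2 probe set past the filter, 1450403_at, was not called either (adjusted p = 0.879). It was at 1.24 and 1.0 in MSM and at 0.892 and 0.826 in B6. Irf1 and Irf8, factors linked to the response to interferon gamma and to myeloid cells, did not pass the test against B6.

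The effectors that bind RNA or act on nucleotides gave 3 calls among 9 probe sets. Oasl1, an oligoadenylate synthetase-like protein, was at -2.46 and -2.77 in MSM and at 0.513 and 0.897 in B6. The groups lay far apart, with a difference of -7.48e-04 ± 1.34e-04 (SE, adjusted p = 9.24e-05). After quantile normalization its adjusted p was 0.917. Ifit3, which binds foreign RNA together with Ifit1, was at -2.74 and -2.98 in MSM and at -0.158 and -0.395 in B6 (adjusted p = 0.00427). Rsad2 1436058_at, the antiviral enzyme viperin, was at -2.93 and -2.71 in MSM and at -0.553 and -0.448 in B6 (adjusted p = 0.0316). The Rsad2 call was lost when any 1 of the 4 males was left out. Rsad2 1421008_at, past the filter, was not called (adjusted p = 0.0563). Nor was 1421009_at, below it, in the fit without the filter (adjusted p = 0.0769). Oas1a, Oas2, Isg20 and Cmpk2 did not pass the test against B6. Oasl2, below the filter, was lower in MSM without it (adjusted p = 0.0299). All 13 probe sets of this group, those below the filter included, had a negative difference, and in 11 of them both MSM males were below both B6 males.

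Rtp4 1418580_at, from a gene for a chaperone of membrane receptors induced by interferon, was at -3.30 and -3.89 in MSM and at -0.0658 and -0.464 in B6. Its MSM males were below all 58 others, which ran from -1.34 to 2.12. The difference of -0.0266 ± 0.00563 (SE, adjusted p = 7.21e-04) kept its direction and call in every setting tried. The other Rtp4 probe set, 1449143_at, below the filter, was at -0.830 and -1.795 in MSM and at -0.293 and -0.802 in B6. It was not called in the fit without the filter (adjusted p = 0.653). Bst2, the tetherin that holds virions at the cell surface, did not pass: MSM was at -1.16 and -1.98 and B6 at -1.67 and -2.02. Here B6 male 2 was the lowest of the 60 males. Mx1 and Mx2, the dynamin-like antiviral GTPases, lay wholly below the filter and were not called lower than in B6.

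Of the other induced genes, Parp14, an ADP-ribosyltransferase, was at -3.13 and -3.48 in MSM and at 0.862 and -0.0609 in B6 (adjusted p = 0.00162). These are values of 1451564_at, whose difference turned to a value near 0 after quantile normalization. The other Parp14 probe set, 1432548_at, below the filter, was not called without it (adjusted p = 0.514). Trim30a 1417961_a_at was at -2.45 and -2.29 in MSM and at 0.285 and 0.430 in B6. The difference was -0.00512 ± 9.52e-04 (SE, adjusted p = 1.52e-04), and the call held in every setting tried. The other Trim30a probe set, 1451860_a_at, below the filter, was not called without it (adjusted p = 0.361). It was at -1.74 and -2.01 in MSM and at -0.371 and -1.08 in B6. Ifi35 1459151_x_at was at -2.70 and -3.499 in MSM and at -0.293 and -0.369 in B6 (adjusted p = 0.00326). The other Ifi35 probe sets were lower as well, with adjusted p of 0.0467 and 0.0345, but each lost its call in 3 of the 4 settings that left out a male. The call of 1459151_x_at was lost without MSM male 2 (adjusted p = 0.0595). Ifi27 was not called with either probe set.

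Among the GTPases induced by interferon gamma, Irgm1 and Iigp1 were lower in MSM. These proteins act on the vacuoles that hold intracellular parasites. Irgm1 was at -2.24 and -3.56 in MSM and at 0.0138 and -0.0215 in B6 (adjusted p = 0.00526), and the call was lost without MSM male 2 (adjusted p = 0.108). The 2 Iigp1 probe sets had adjusted p of 0.0286 and 0.0389, and both lost the call when any of the 4 males was left out. Igtp and Irgm2, of the same family, did not pass. Gbp7 1425156_at, a guanylate-binding protein, did not pass against B6 (adjusted p = 0.221), while its other probe set, 1434380_at, was lower in the fit without the filter (adjusted p = 0.00177). The chemokines Cxcl9 and Cxcl10, which draw T cells, had negative differences with 0 calls among 2 probe sets tested. Usp18, the protease that removes Isg15 and restrains the receptor, was below the filter and lower in MSM without it, with scaled values of -2.43 and -2.58 against -0.00632 and -0.581 in B6 (adjusted p = 0.0359).

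**Figure D3:**
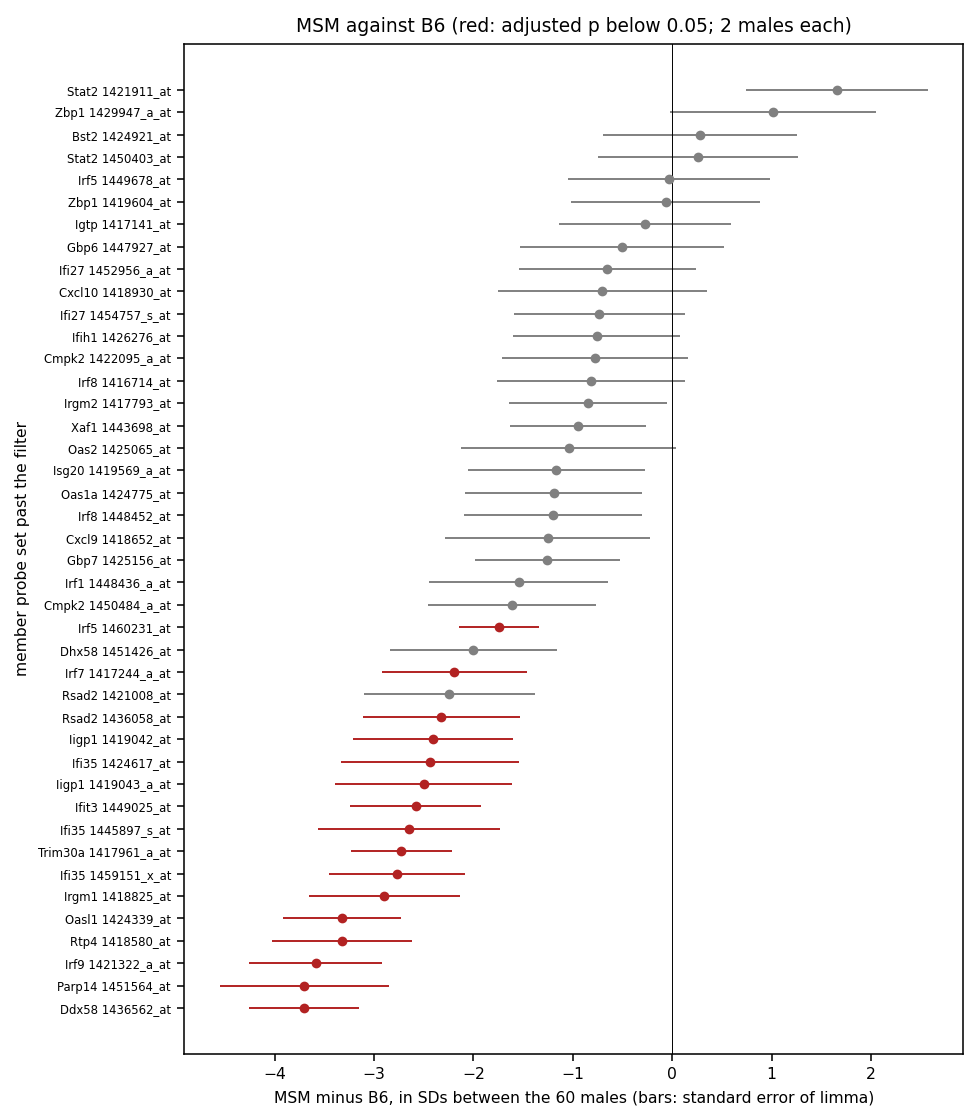
Difference between MSM and B6 for each of the 42 member probe sets past the filter (rows), divided by the SD between the 60 males, with the standard error of limma as bars and calls in red. Of the 42 points, 38 lie below 0, and Ddx58 1436562_at and Parp14 1451564_at are the lowest.

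Because B6 has only 2 males, MSM was also set against the mean of the 29 other strains. Of the 42 members, 25 were lower, against 16.4% of all probe sets, and 1 was higher, against 25.3% of all. The one higher was Stat2 1421911_at (adjusted p = 0.0118), which lost the call when either MSM male was left out. The difference was negative in 40 of 42 members. The count of 26 calls fell to 14 without MSM male 2 and to 19 without MSM male 1. This comparison uses the same MSM males as the one against B6 and is not a separate test of them. MSM male 2 was the lowest of the 60 males in 19 of 42 probe sets and MSM male 1 in 5, while MSM male 2 was the lowest in 6.87% of all probe sets.

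Markers of Kupffer cells were lower in MSM as well. Of 18 marker probe sets tested, 6 were lower in MSM than B6, 0 were higher and all 18 differences were negative. Against the other strains, 16 of 18 were lower in MSM. Their mean scaled value was -2.34 and -2.43 in the MSM males and -0.534 and -0.460 in the B6 males, and the lowest of the males outside MSM was at -1.26. Of their defining genes, Clec4f, Vsig4 and Cd5l were past the filter. Timd4 was below the filter, and Marco had a probe set on each side of it. Hepatocyte markers gave 2 lower and 0 higher of 17 against B6, near the 9.95% lower of all probe sets. Of these 17 differences, 15 were negative, beside 40.1% of all probe sets, with a median of -1.10 residual SDs. The hepatocyte means were -1.28 and -0.663 in the MSM males and 0.184 and 0.462 in the B6 males. Lymphocyte markers gave 0 calls of 12 in this comparison, dendritic cell markers 0 of 3, neutrophil markers 1 higher of 3, and endothelial markers 1 higher and 1 lower of 8. In whole liver, fewer cells of a type and less RNA per cell cannot be told apart. The part of the Kupffer cell markers in the lower values of the members was not tested.

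The other genes of the pathway are read beside the 9.95% of all probe sets that were lower and the 13.4% that were higher in MSM than B6. Among ligands, receptors and kinases, 3 of 20 probe sets of 10 genes were lower and 2 higher, near those shares. Jak1, the kinase shared by all interferon receptors, was higher by 0.00438 ± 5.19e-04 (SE, adjusted p = 1.19e-07). Jak2, the kinase of the interferon gamma receptor, was lower (adjusted p = 0.0113), as were Tyk2 (adjusted p = 0.0393) and the receptor chain Ifnar1 (adjusted p = 0.0407). Of 19 probe sets for sensing and induction, such as Mavs and Irf3, 0 were called in either direction. Of 18 for negative regulators, 1 was called in each direction: Adar was lower (adjusted p = 0.0466) and Samhd1 was higher (adjusted p = 0.0466). Of 30 for other induced genes, 5 were lower and 1 was higher. Parp9, an ADP-ribosyltransferase family member, was lower by -0.00447 ± 6.34e-04 (SE, adjusted p = 2.91e-06), and Parp12 and Trim21 were lower with adjusted p of 0.00246 and 0.0105. Lgals3bp, a secreted glycoprotein, was higher (adjusted p = 3.62e-04). Each call named here is of a single probe set, and other probe sets of the same genes are not given. Only the calls with the smallest p in each list are named. None of them was rerun after quantile normalization.

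The consomic strains show each MSM chromosome in a B6 background. The B6 males themselves were low over the 42 members, with median scaled values of -0.341 and -0.389. Over all probe sets tested their medians were -0.0153 and -0.0600. Against B6, the 42 member probe sets were tested in each of the 28 strains and gave 7 calls. Of all probe set and strain combinations, 0.365% were called. Against the other strains, which here means all strains whose copy of that chromosome is wholly B6, with MSM left out, they gave 14 calls. Of these, 9 were in a strain that carries the member's own chromosome from MSM. There were 57 such combinations for 40 probe sets, so 9 of 57 stands beside 10.3% of all probe sets in that position. In direction, 1 of the 9 was higher and 8 were lower, beside 3.86% and 6.4% of all. The other 5 calls came from 1119 tests in strains that do not carry the gene's chromosome, beside 0.296% of all such tests. The reference males are shared between these comparisons, so the calls are not independent of each other. The count of 9 fell to 5 when male 1 of each carrier strain was left out and to 6 without male 2.

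Ddx58 was lower in Chr4. In 1436562_at the Chr4 males were at -3.11 and -3.20, beside -2.52 and -3.26 in MSM. No other male was below -1.66. The difference was -0.00417 ± 5.79e-04 against B6 (SE, adjusted p = 4.50e-05) and -0.00354 ± 4.17e-04 against the other strains (adjusted p = 9.61e-07), and both held in every setting tried. Of the 2 probe sets below the filter, 1456890_at was low in Chr4 too, at -2.98 and -2.60, with the 56 males outside Chr4 and MSM from -1.22 to 2.25. The other, 1446457_at, was at 0.408 and -2.39 in Chr4 and was called neither there nor in MSM. No other member was called in Chr4. Over the 42 member probe sets, Ddx58 1436562_at included, 38 differences from the other strains were negative with a median of -1.05 residual SDs, against 0.00134 over all probe sets, and 28 of 42 were negative against B6. The Kupffer cell markers had a mean of -0.698 and -0.559 in the Chr4 males, and their part in this was not tested.

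Trim30a was lower in all 3 strains with chromosome 7 material. In 1417961_a_at the males were at -2.12 and -2.55 in Chr7, -2.33 and -2.66 in Chr7C, and -1.57 and -1.85 in Chr7T. The 52 males outside these strains and MSM ran from -0.913 to 1.61, so no male of the other strains overlapped. Against the other strains the adjusted p was 1.69e-05 in Chr7, 6.17e-06 in Chr7C and 0.00145 in Chr7T. Against B6 it was 0.00353, 0.00243 and 0.0884, and leaving out 1 male raised the first of these to up to 0.0878 and the second to up to 0.0786. The Chr7T call was lost when either of its males was left out. The other probe set, 1451860_a_at, below the filter, did not follow. Its Chr7T males were at 4.12 and 1.56, and without the filter it was higher in Chr7T (adjusted p = 0.0104). Chr7 at 1.18 and 1.03 and Chr7C at 0.169 and 0.288 were not called.

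Irf5 differed between the parts of chromosome 6. In 1460231_at the Chr6C males were at -2.72 and -2.30 and the Chr6T males at 0.540 and 0.320. Chr6C was lower than the other strains (adjusted p = 2.86e-07) and lower than Chr6T by -7.71e-04 ± 1.06e-04 (SE, adjusted p = 1.97e-04). In that comparison of part strains 0.0463% of all probe sets were called. Both calls were lost after quantile normalization, with adjusted p of 0.322 and 1.0, and the second also on the second array of each male (adjusted p = 0.277). Against B6, whose males were at -0.763 and -0.922, Chr6C was not called. The other Irf5 probe set, 1449678_at, had 3.28% of its variance between strains and no call in Chr6C. Irf5 1460231_at was also higher in strains that do not carry chromosome 6 from MSM. The Chr2C males were at 2.29 and 2.64, above all 48 males outside Chr2C, Chr5, Chr6C, Chr6T, Chr19 and MSM, the highest of which was at 1.13. Chr2C was higher than B6 (adjusted p = 9.93e-06) and the other strains (adjusted p = 1.94e-06) in every setting tried, and higher than Chr2T by 6.11e-04 ± 1.06e-04 (SE, adjusted p = 0.00181), where 0.309% of all probe sets were called. The last call was lost without either Chr2T male 1 or Chr2C male 2, after quantile normalization and on the second array of each male. Chr5 at 1.04 and 1.48 was higher than both references, and Chr19 at 1.503 and 0.546 was higher than B6, and these calls depended on single males.

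Chromosome 11 carries 7 of the 40 genes measured, and its strain gave calls in both directions. Irgm2 was higher in Chr11, at 3.85 and 1.83, while the 56 males outside Chr11 and MSM ran from -2.32 to 2.30. Chr11 male 2 was thus within the range of the others. The difference was 0.0367 ± 0.00892 against B6 (SE, adjusted p = 0.0376) and 0.0326 ± 0.00642 against the other strains (adjusted p = 0.00236). Without Chr11 male 1 the calls were lost, with adjusted p of 0.766 and 0.9998. The call against B6 was lost without either B6 male too. MSM, which carries the same chromosome, was at -0.696 and -1.83 and lower than Chr11 (adjusted p = 2.62e-04), a comparison chosen after the values were seen, in which 21.8% of all probe sets were called. Igtp, a neighbour of Irgm2 in the reference annotation, was at 2.41 and 1.77 in Chr11 but did not pass (adjusted p = 0.138 against B6 and 0.0939 against the other strains). Irgm1, on the same chromosome, was at -0.850 and -0.410.

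Ifi35 1459151_x_at was lower in Chr11, at -1.30 and -2.64, the first of them within the range of the 56 males outside Chr11 and MSM, with an adjusted p of 0.0130 against the other strains and 0.392 against B6, and its call was lost without Chr11 male 2. The other Ifi35 probe sets were not low in Chr11: 1424617_at was at 1.19 and -0.403 and 1445897_s_at at 0.372 and -0.0275, within the range of the other males. The 2 probe sets of Xaf1, a gene linked to apoptosis, moved in opposite directions. Xaf1 1443698_at, past the filter, was at -2.42 and -2.003 in Chr11, lower than the other strains (adjusted p = 0.00507) but not called against B6 (adjusted p = 0.583), and at -1.44 and -2.41 in MSM. That call was lost without Chr11 male 1 (adjusted p = 0.426) and after quantile normalization. Xaf1 1443621_at, below the filter, was at 4.84 and 4.61 in Chr11 and at 2.56 and 1.68 in MSM. The 56 other males ran only from -0.760 to 0.109, so neither strain overlapped them, and 93.9% of its variance lay between strains. Without the filter its difference from B6 was 0.0148 ± 4.77e-04 in Chr11 (SE, adjusted p = 3.74e-20) and 0.00727 ± 4.77e-04 in MSM (adjusted p = 3.78e-13). Chr11 was also above MSM (adjusted p = 1.56e-13).

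Gbp7 was lower in Chr3. In 1425156_at the Chr3 males were at -2.59 and -2.84, below all 56 males outside Chr3 and MSM, the lowest of which was at -1.27. The adjusted p was 0.00124 against the other strains, and the call was lost when either Chr3 male was left out. Against B6 Chr3 was not called (adjusted p = 0.264). The probe set below the filter, 1434380_at, was at -2.97 and -2.50 in Chr3 and at -2.98 and -2.81 in MSM, with all 56 others above -1.07. Without the filter its adjusted p in Chr3 was 3.63e-04 against the other strains and 0.0513 against B6.

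**Figure D4:**
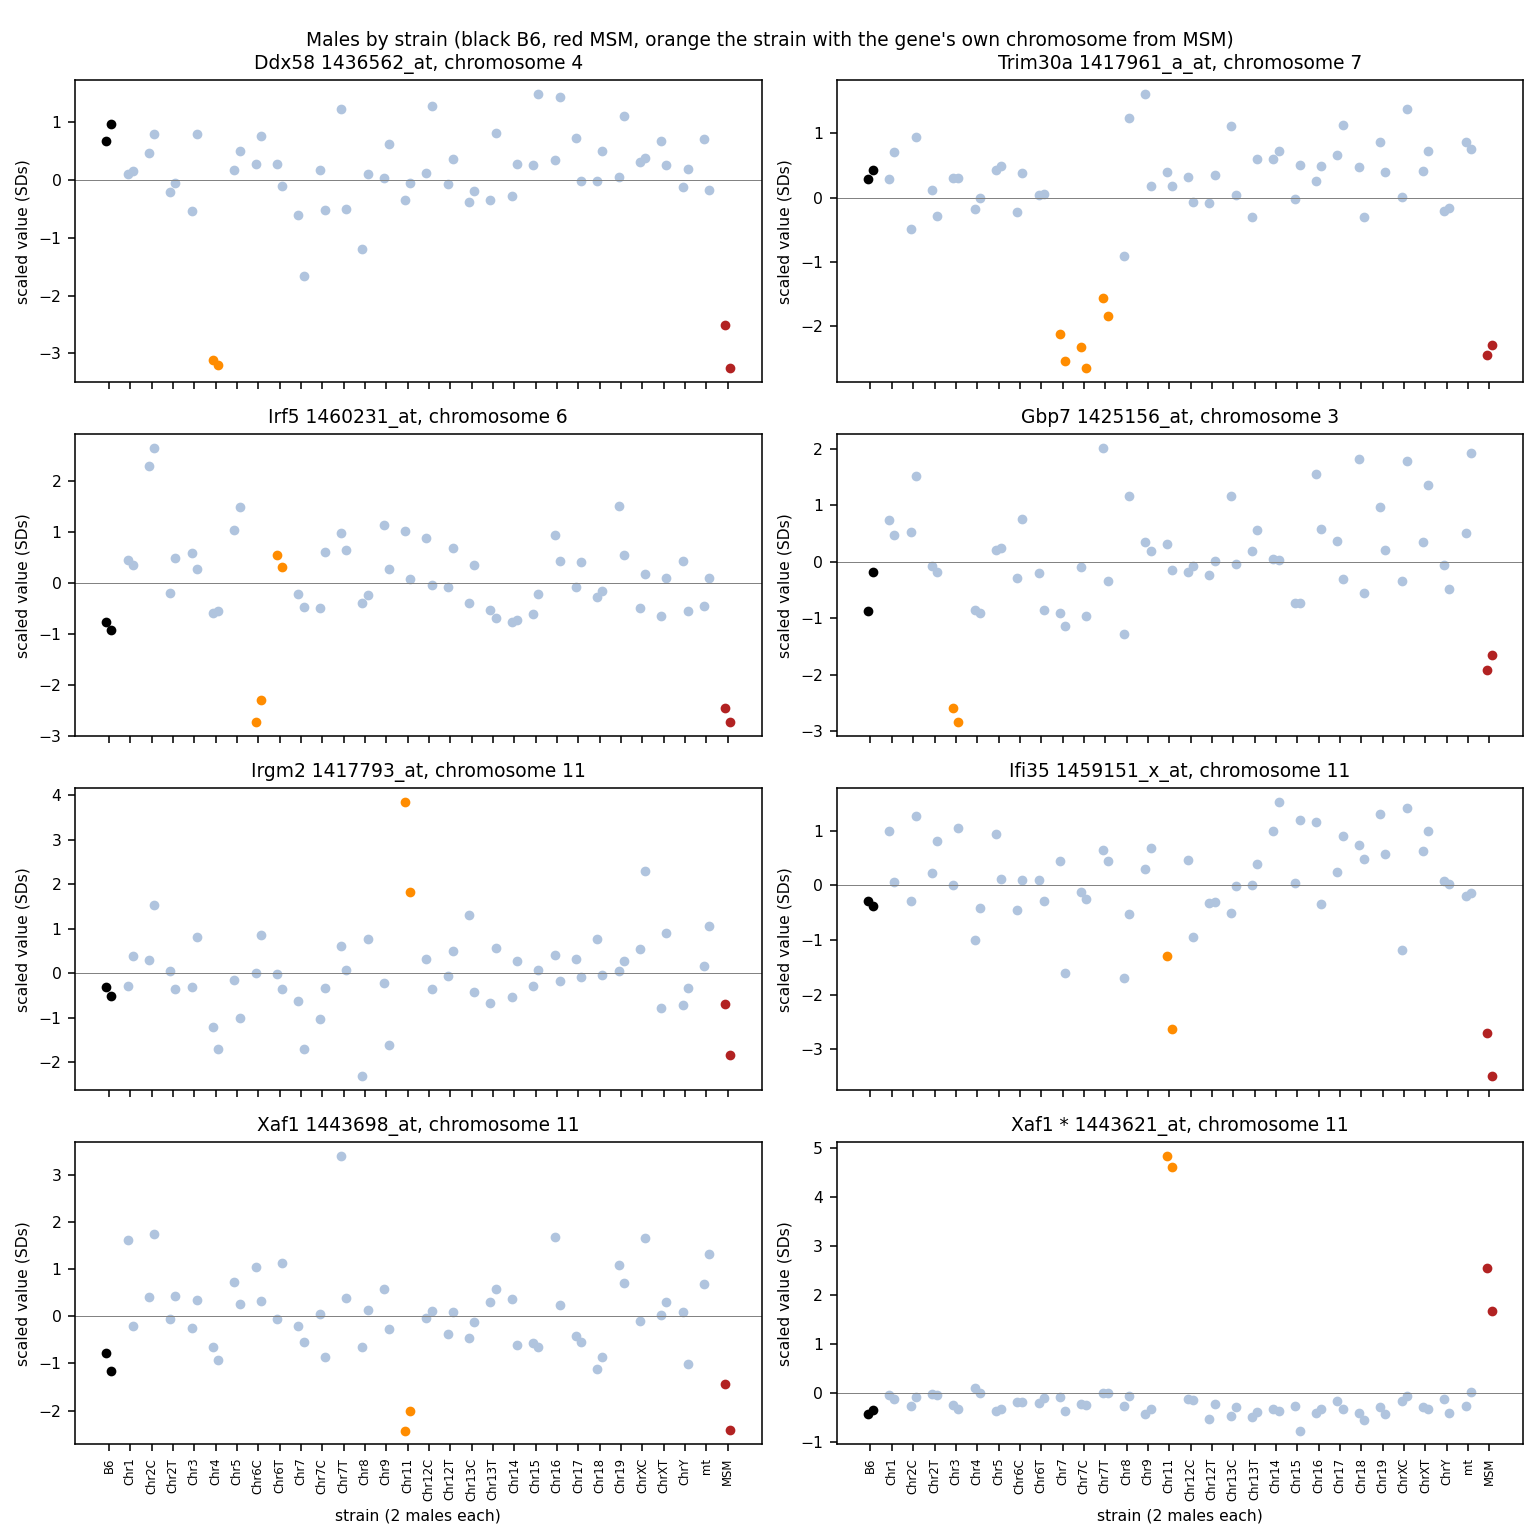
Scaled value (SDs between males, vertical axis) of each male by strain (horizontal axis) for 8 member probe sets called in a strain with their own chromosome from MSM (asterisk for the Xaf1 probe set below the filter), with B6 in black, MSM in red and those strains in orange. Orange and red points lie together at the bottom for Ddx58 and Trim30a, while for Irgm2 the orange points are high and the red ones low.

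Of the 5 calls in strains without the gene's chromosome, those of Irf5 in Chr2C and Chr5 are described above, and the other 3 were each lost in a setting that left out a male or turned on 1 male. Oasl1 was higher in Chr16, at 2.01 and 2.17, beside a highest value of 1.85 in the 56 males outside Chr16 and MSM (adjusted p = 0.0112), and the call was lost when either Chr16 male was left out. Ifit3 was higher in Chr7T, at 3.08 and 1.05 (adjusted p = 0.0294), and lost the call without male 1 (adjusted p = 0.999). Irf8 1416714_at was higher in Chr9 (adjusted p = 0.0484) through male 1 alone, at 4.82, while male 2 was at -0.326, and the sign turned without male 1.

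Single males stood apart over many members at once. Chr7T male 1 was the highest of the 60 males in 9 of 42 tested probe sets and in 18 of all 63, beside 2.54% of all 19429 probe sets tested. In Oas1a it was at 4.54, beside 0.506 in its strain mate and a highest value of 1.87 among the 56 males outside Chr7T and MSM. The gap to the next male was 0.680 of the range of the other 59. Its 2 arrays gave 4.39 and 4.69, so the high value was repeated on both. Irf8 1416714_at in Chr9 male 1 had a gap of 0.677, with arrays at 4.19 and 5.45. This is the male that stood apart over all probe sets. The median scaled value over the 42 members was 1.32 in Chr7T male 1, 1.37 in Chr2C male 2 and 1.35 in ChrXC male 2. Their strain mates were at 0.0883, -0.101 and -0.373. At the low end, outside MSM, Chr8 male 1 had a median of -1.23 and Chr7 male 2 of -1.11. These males had Kupffer cell marker means of 1.46, 2.10 and 2.18 at the high end and -1.06 and 0.539 at the low end. Of the 10 males with the highest member mean, 6 were among the 10 highest for Kupffer cell markers. The count was 4 for neutrophil and 4 for endothelial markers, 3 for lymphocyte, 2 for dendritic cell and 1 for hepatocyte markers. Of the 10 lowest, 6 were among the 10 lowest for Kupffer cell markers and 4 for hepatocyte markers. There the count was 3 for lymphocyte, 2 for endothelial, 0 for neutrophil and 0 for dendritic cell markers. These counts describe 60 males and the part of the markers was not tested. In some males the 2 means did not go together. Chr18 male 2 was at -1.26 for the Kupffer cell markers and at 0.00487 for the members. Chr5 male 2 was at 1.81 and -0.0938.

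**Figure D5:**
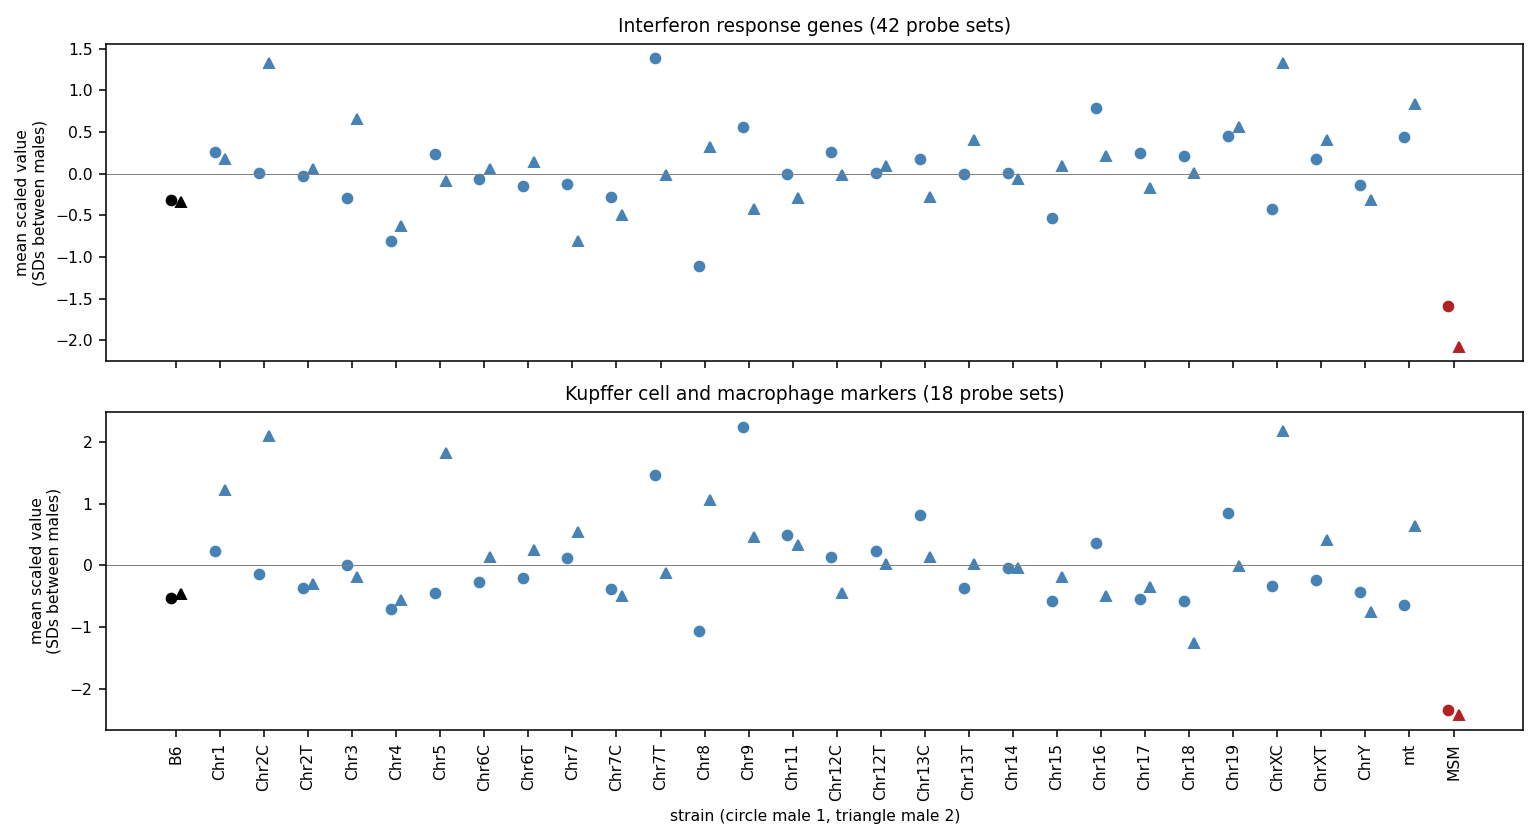
Mean scaled value (SDs between males, vertical axes) in each male by strain (circle male 1, triangle male 2) of the 42 member probe sets (top) and of 18 probe sets for Kupffer cell and macrophage markers (bottom), with B6 in black and MSM in red. The MSM males are the lowest in both panels, at -1.59 and -2.08 for the members and -2.34 and -2.43 for the markers.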

How the data were processed

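Affymetrix mouse genome arrays measured liver RNA of 60 males. The deposited values are log2 signals, which the authors had normalized between arrays; no source used here names the summary method. Values ran from 6.34 to 14.8, which was taken as a log2 scale. In the table, the spread was compressed to a different degree in each probe set. The labels gave each array its strain and a number. That number was taken to mark the animal, although no label says so, and p-values then measure only the spread between these samples.

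The platform annotation named 34945 of 45037 probe sets by 1 symbol, 932 by several and 9160 by none, and the latter 2 kinds were left out. RefSeq (GRCm38.p6) matched 34741 of the 34945. The 2 arrays of a male were averaged. limma (version 3.58.1, R 4.3.3) was fitted with 1 mean per strain, with 30 residual and 0.579 prior degrees of freedom. Contrasts were each strain minus B6, each strain minus the other strains, and C minus T parts. Calls had an adjusted p below 0.05 (Benjamini-Hochberg over all probe sets within a comparison). The fit was tested on simulated data. Chr11 minus MSM was added after the values were seen.

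The members, the pathway and marker lists and the rule for named genes were chosen with earlier results of these data known. Values per male are given for members called on their own chromosome against both references, for the 8 members with the smallest p in MSM against B6 and both MSM males beyond both B6 males, for members in which 1 male stood beyond the others by more than 0.5 of their range, and for the 6 with the smallest F test p. Other members are named to account for the whole set. Alternatives were no filter, a filter on the mean, 1 probe set per gene, quantile normalization and either array of each male. Others were a variance trend, B6 and MSM alone, and males of the compared strains left out.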

Additional observations from a re-analysis of the deposited data

Results flagged for a closer look

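Irf5 1460231_at differed between the parts of 2 chromosomes by a test of the difference itself. Chr6C was lower than Chr6T by a log2 difference of -7.71e-04 ± 1.06e-04 (SE, 2 males each, limma, adjusted p = 1.97e-04), with both Chr6C males below both Chr6T males. Chr2C was higher than Chr2T by 6.11e-04 ± 1.06e-04 (SE, adjusted p = 0.00181), although Irf5 lies on chromosome 6, and both Chr2C males were above both Chr2T males. Both calls were lost after quantile normalization and on the second array of each male. The Chr2C call was also lost without Chr2T male 1 or without Chr2C male 2. The other Irf5 probe set, 1449678_at, was called in neither comparison. Its mean scaled value was -1.58 in Chr6C and 0.833 in Chr6T, but on chromosome 2 it ran the other way, with 0.594 in Chr2C and 1.375 in Chr2T. Groups of 2 males were too small to look for single males that stand apart within a strain.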

How the results depend on the processing

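Of 65 called values, 16 kept their direction and call in every setting, 29 kept both with each male of the compared strains left out, and 18 reversed in some setting. Quantile normalization, which moves the median difference of MSM from B6 upward, gave 21 members called between strains, 16 higher and 6 lower in MSM than B6, 11 calls in consomic strains against B6, 22 against the other strains and 0 between part strains on their own chromosome. It reversed MSM against B6 for Irf7 (0.000176), Ifi35 1424617_at (0.000936) and 1459151_x_at (0.000922), Parp14 (0.000013) and Irf5 (0.00102). Against the other strains it reversed Isg20 (0.000568), Rsad2 1421008_at (0.000204), Oasl1 (1.01e-05), Ifi35 1424617_at (0.000599) and 1459151_x_at (0.000754), Oas1a (0.00244), Gbp7 (0.00021), Xaf1 1443698_at (0.00242), Cmpk2 (0.000386), Dhx58 (0.000173), Parp14 (0.000189) and Irf5 (0.000598). The first array alone gave 5 members between strains, 10 lower in MSM than B6 and 4 calls against B6, and the second array alone gave 0 between part strains. B6 and MSM fitted alone gave 10 lower in MSM. Without the filter 1 member was higher in MSM. Without the MSM strain 4 were called between strains. These causes were not tested beyond the construction of each setting.

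Leaving out males of the compared strains gave 8 to 12 members lower in MSM than B6 and 14 to 19 called in MSM against the other strains. It gave 5 to 6 calls on the own chromosome. Members called between strains were 6 to 11 in the left-out settings where they were counted. That count was not made with every male left out in turn, so it is not a full range. Without Chr9 replicate 1, Irf8 1416714_at in Chr9 turned to -0.000155, and without replicate 2 it was 0.00249. No paired analysis was possible because the labels give no replicate number that strains share. The arrays carry no absolute detection limit here, and 21 of 63 member probe sets lay below the median signal, where a low value may be a measure of background.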

Other observations

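The chemokines were high in single males of different strains. Cxcl10 1418930_at was highest in Chr7 male 2, at a scaled value of 4.66, and next in Chr9 male 1, the male that stood apart over all probe sets, at 4.01. Cxcl9 1418652_at was highest in Chr8 male 2, at 2.74, and next in ChrXC male 2, at 2.60. Igtp was highest in ChrXC male 2, at 3.38, and next in Chr2C male 2, at 2.44. The lowest male was MSM male 2 in all 3 of these probe sets.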
